A study of Mus musculus with 12 samples.

Results

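The genes described here are imprinted genes of the mouse that lie outside the Meg3 locus, read in embryonic stem cells. They were chosen by name: 36 symbols were listed, and 32 of them had a row in the deposited tables, out of 39179 counted genes. Snrpn, Snurf, Kcnq1ot1 and Peg13 had no row under their symbol and were not analysed here. The 32 genes lie at 17 loci on 8 chromosomes, with 15 of them on chromosome 7. Textbook knowledge places 13 among the maternally expressed and 19 among the paternally expressed genes, although for several of them this holds in some tissues only. The tables count RNA of both parental copies together, so which copy was read was not measured.

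Total RNA sequencing was done on 12 libraries from 2 experiments on BMP signalling, in which SMAD1 and SMAD5 carry the signal to the nucleus. In the first, a line of mixed CBA and C57Bl/6 strain with GFP under a BMP response element (BRE) was grown in FCS and Lif on feeders and sorted on SSEA1 and GFP. Cells without GFP (BRE-negative) and with it (BRE-positive) gave 3 libraries each. They were taken in 3 pairs at different times and are labelled naïve. In the second, cells of mixed CD-1, 129/Ola and C57Bl/6 strain were grown in 2i and Lif on gelatin and labelled ground state. Their Smad1 and Smad5 alleles were either floxed (Smad1/5 fl/fl, here FL, 2 libraries) or deleted (Smad1/5 -/-, here KO, 4 libraries). The libraries stem from 2 parental lines, with 1 FL and 2 KO libraries per line, and the labels do not tell which is which. No other allele or agent is named for the groups.

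Imprinted genes are read mainly from the copy inherited from 1 parent. The choice rests on DNA methylation laid down in the egg or sperm at a control region, which often serves several neighbouring genes, and on proteins such as ZFP57 and TRIM28 that keep this methylation after fertilisation. ZFP57 binds the methylated hexanucleotide TGCCGC. Many paternally expressed genes favour growth of the embryo and placenta and many maternally expressed genes restrain it. Embryonic stem cells are known for variation of imprinted genes between lines and culture conditions.

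Library totals ran from 25862573 to 37319846 counts. Levels are given as CPM, counts divided by the library size and scaled to 1000000, after TMM scaling (trimmed mean of M values), unless they are called TPM, which is also divided by gene length and is the authors' own value. A gene is called higher or lower where edgeR's quasi-likelihood test gave a Benjamini-Hochberg adjusted p under 0.05 over all genes tested. The summed CPM of 8 pluripotency markers was 3830.3 to 5239.3 in all libraries, and none of the 8 was at 0. The sum hides differences of single markers. Against the FL and KO libraries, 4 of 8 were higher and 3 lower in the BRE libraries, where 67.8% of all genes were called. Zfp42 was 4.97-fold lower and Klf4 4.52-fold higher there. In KO against FL, Nanog alone was called, 1.52-fold lower (edgeR adjusted p = 0.00613), where 5.03% of all genes were called. The sum of 18 fibroblast markers, which feeders would carry, was 89.6 to 224.9 CPM in the BRE libraries and 12.8 to 21.4 CPM in the FL and KO libraries. Fap was at 0 in FL, and Lum, Fap and Postn were at 0 in KO.

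Before the values, 4 stretches of sequence show the start regions of the genes that changed within an experiment. They were read from RefSeq promoters of GRCm38.p6, which span 250 bases before and 50 after a start, and were trimmed to leave out transcript ends. Capitals mark TGCCGC, read on either strand, so that GCGGCA is the same motif on the other strand. The stretch at the first start of Zdbf2 (chr1:63200108-63200357, plus strand) lies 72.9 kb before the start of its second RefSeq promoter, overlaps an exon of the noncoding gene Platr12 and holds 3 such motifs and 13 CpG. The second promoter, at the annotated start of Zdbf2 (chr1:63273019-63273318, plus strand), is not printed and holds 0 motifs and 38 CpG. The stretch of Plagl1 (chr10:13090582-13090787, plus strand) ends 30283 bases inside the annotated gene, overlaps one of its exons and holds 1 motif and 15 CpG. The gap of 146 bases between the starts of Peg3 and Usp29 (chr7:6730432-6730577, printed on the minus strand) and the stretch before Peg12 (chr7:62464511-62464760, minus strand) hold 0 motifs.
Zdbf2: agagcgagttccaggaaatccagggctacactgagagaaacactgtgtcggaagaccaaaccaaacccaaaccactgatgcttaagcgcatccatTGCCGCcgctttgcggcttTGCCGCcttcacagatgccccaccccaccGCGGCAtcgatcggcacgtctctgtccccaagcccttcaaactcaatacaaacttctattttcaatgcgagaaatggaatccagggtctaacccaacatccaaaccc
Plagl1: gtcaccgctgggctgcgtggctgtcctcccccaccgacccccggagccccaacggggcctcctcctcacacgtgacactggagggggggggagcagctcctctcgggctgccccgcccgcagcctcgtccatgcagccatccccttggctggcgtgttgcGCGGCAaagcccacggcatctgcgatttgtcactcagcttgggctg
Peg3 to Usp29: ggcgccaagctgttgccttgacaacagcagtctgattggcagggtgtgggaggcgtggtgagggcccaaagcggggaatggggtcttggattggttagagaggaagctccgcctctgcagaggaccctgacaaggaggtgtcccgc
Peg12: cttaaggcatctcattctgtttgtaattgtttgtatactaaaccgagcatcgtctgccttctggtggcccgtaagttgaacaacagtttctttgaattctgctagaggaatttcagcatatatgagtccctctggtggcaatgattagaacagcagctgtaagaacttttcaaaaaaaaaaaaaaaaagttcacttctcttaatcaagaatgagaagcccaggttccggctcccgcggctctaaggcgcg

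Of the 32 genes, 26 were matched by symbol to the RefSeq promoters used here, and 6 were not. TGCCGC stood in at least 1 promoter of 12 of these 26 genes (46.2%), against 13.1% of 27025 genes. Counted by promoter it was 13 of 39 (33.3%) against 11.6% of 32851. The promoters of the imprinted genes were also rich in CpG, with a median of 17 against 7. Among promoters with at least 17 CpG, a limit set at their own median, the motif stood in 11 of 22 (50%) of theirs and in 26.2% of 10320 in all. Overlapping promoters were counted separately. For Mest, those that begin at chr6:30737800 and chr6:30737803 hold the same 2 motifs. A match of letters is no evidence of binding, and its absence from these windows says nothing about the rest of a locus.

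Per length, the imprinted genes covered a wide range of levels. In the BRE libraries the order by mean TPM began with Phlda2 (128.4 TPM, 97.6 to 162.8), a pleckstrin-homology protein that restrains placental growth. It went on with Impact (85.9 TPM), Grb10 (79.7 TPM), Igf2r (62.2 TPM), Ube3a (61.2 TPM) and Peg3 (43.8 TPM). Each of these 6 overlapped the next in its range over the 6 libraries. The lowest were Usp29 (0.113 TPM), Airn (0.0908 TPM) and Nap1l5 (0.0764 TPM). In the FL and KO libraries Impact, an inhibitor of the kinase GCN2, stood first at 179.8 TPM (116.8 to 249.4), above every value of the next gene. Mcts2 (91.8 TPM), Ube3a (71.2 TPM), Mest (68.5 TPM), Phlda2 (67.1 TPM) and Igf2r (51.9 TPM) followed, and neighbours among these 5 overlapped. At the bottom were Magel2 (0.139 TPM), Zim1 (0.0882 TPM) and Airn (0.0318 TPM). Because the deposited TPM values add 1 to every count, the lowest values do not reach 0.

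**Figure D1:**
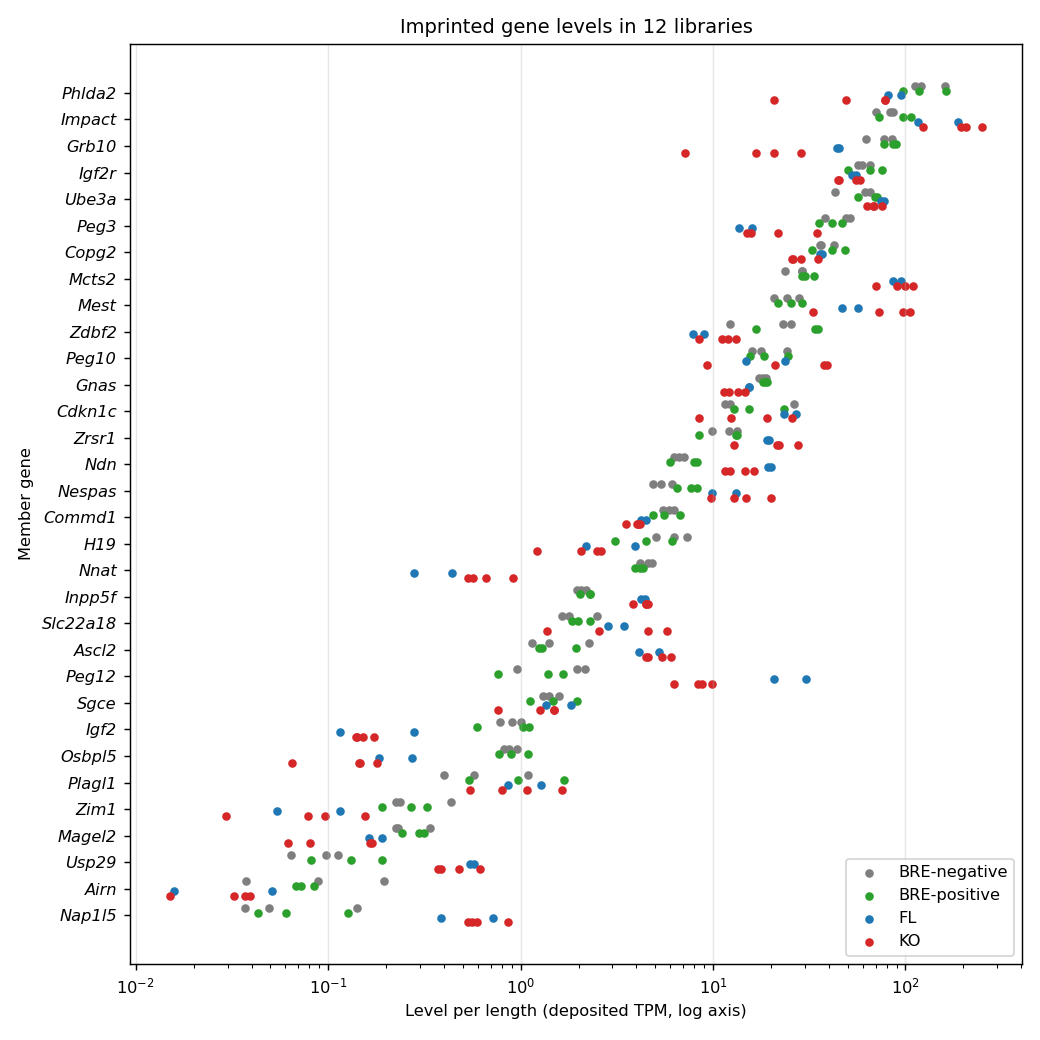
Deposited TPM (log axis) of the 32 imprinted genes, ordered by their mean in the BRE libraries, with 1 point per library and a colour per group. Phlda2 leads in the BRE libraries at 128.4 TPM on average, and Peg12, Nnat, Igf2, Osbpl5 and Usp29 show the points of the 2 experiments apart.

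The first comparison asked whether imprinted genes differ between cells of 1 culture with and without an active BMP reporter. Zdbf2 and Plagl1 were higher and Peg3 was lower in BRE-positive cells, all by less than 1.5-fold. All 3 are paternally expressed and encode zinc finger proteins. Among the 30 genes tested these were 3 (10%), where 2.97% of 15435 genes were called in all (1.96% higher, 1.02% lower). Of the 13 maternally expressed genes, edgeR called 0, and 1 of them had an unadjusted p under 0.05. DESeq2 called 0 of the 8 maternally expressed genes for which it gave an adjusted p, and gave none for H19, Zim1, Slc22a18, Ascl2 and Osbpl5. Of the 17 paternally expressed genes tested, 6 had an unadjusted p under 0.05 by edgeR, as had 2817 of the 15435 genes in all.

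Zdbf2, at chr1:63273265-63314576 on GRCm38, encodes a protein with a DBF4-type zinc finger. It stood at 121.4, 211.9 and 230.2 CPM in BRE-negative replicates 1 to 3 and at 162.2, 279.7 and 291.0 CPM in the BRE-positive replicates collected with them. The positive library was the higher one in every pair, although pair 1 lay below the other pairs in both groups and the 2 groups overlapped. The change was 1.32-fold (log2 fold change 0.40 ± 0.05, SE, n = 3 pairs, edgeR adjusted p = 0.00121). Its call held in all 3 fits that left out a pair (0.38 to 0.42) and with offsets for exon length. It was lost in 5 of 12 alternatives, among them the fits without the pairing.

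Plagl1 (chr10:13060504-13131694) encodes a zinc finger factor with antiproliferative activity that also binds other imprinted loci. BRE-negative replicates 1 to 3 held 2.54, 3.34 and 6.33 CPM, and their BRE-positive partners 3.35, 5.18 and 8.92 CPM. Every pair moved upwards, and pair 3 was the highest in both groups. The change was 1.44-fold (log2 fold change 0.53 ± 0.12, SE, n = 3 pairs, edgeR adjusted p = 0.0349). The call was lost with offsets for exon length and in the fits without pair 2 or pair 3, and DESeq2 gave no adjusted p for this gene (log2 fold change 0.52).

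Peg3 (chr7:6703892-6730431) encodes a zinc finger protein linked to growth and maternal behaviour. It measured 314.8, 306.2 and 222.7 CPM in the BRE-negative libraries and 260.6, 249.6 and 188.4 CPM in the BRE-positive ones. The positive library was the lower of each pair, with pair 3 lowest in both groups. The difference was 1.19-fold (log2 fold change -0.26 ± 0.05, SE, n = 3 pairs, edgeR adjusted p = 0.0148), and the call was lost without pair 2 or pair 3. Of 17 fibroblast markers tested, 4 (Acta2, Tagln, Col1a2 and Fbln2) were also lower in BRE-positive cells, where 1.02% of all genes were lower. The median log2 fold change of the 17 was -0.41, while Thy1 (0.25), Fbln5 (0.09) and Pdgfrb (0.02) did not fall. Between pairs the levels ran the other way in BRE-negative cells, but only in part in BRE-positive cells. The marker sum was lowest in pair 1 of both groups (127.0 and 89.6 CPM), where Peg3 was highest. In BRE-negative cells it was highest in pair 3 (224.9 CPM), where Peg3 was lowest. The part of fibroblasts in the fall was not tested. In such bulk libraries, fewer cells of a type and less RNA per cell cannot be told apart.

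H19, the maternally expressed long noncoding RNA next to Igf2, came close to the threshold. It was at 16.5, 10.5 and 12.9 CPM in the BRE-negative and at 6.77, 8.45 and 11.4 CPM in BRE-positive libraries, lower in each pair and most so in pair 1. The log2 fold change was -0.58 ± 0.16 (SE, n = 3 pairs, edgeR adjusted p = 0.0639). Leaving out pair 2 or pair 3 brought H19 past the threshold, at -0.72 and -0.79. Without pair 1 the log2 fold change shrank to -0.23 (edgeR adjusted p = 0.12). Igf2, the growth factor gene beside it, was at 5.27, 3.80 and 4.29 CPM and at 3.04, 4.54 and 4.84 CPM, with no common direction over the pairs (log2 fold change -0.11 ± 0.18).

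Nespas, the paternally expressed antisense RNA of the Gnas locus, had 9.95, 7.31 and 7.97 CPM in the BRE-negative and 10.4, 10.4 and 11.2 CPM in BRE-positive libraries (log2 fold change 0.36 ± 0.11, SE, n = 3 pairs, edgeR adjusted p = 0.089). Gnas itself, which encodes a G protein subunit, differed by -0.04 ± 0.06 on the log2 scale. In all, 11 of the 30 genes (36.7%) moved the same way in the 3 pairs, 4 upwards and 7 downwards, against 40.3% of all genes. The median size of change was 0.11 on the log2 scale for the imprinted genes and 0.11 for all genes. Airn and Nap1l5 had too few counts to be tested.

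**Figure D2:**
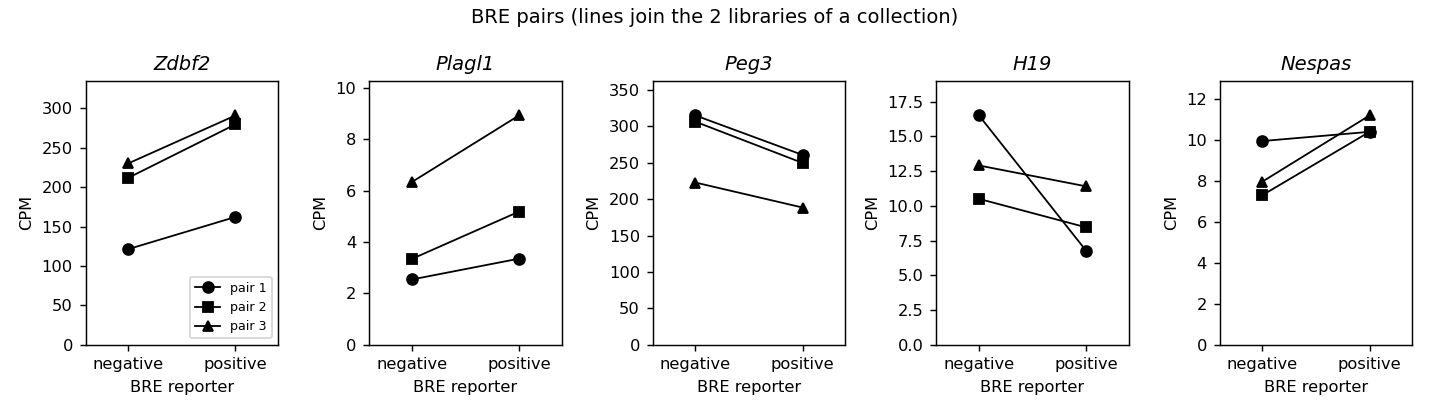
CPM of 5 imprinted genes in BRE-negative and BRE-positive cells, with a line joining the 2 libraries of a collection. All 3 lines slope upward for Zdbf2, Plagl1 and Nespas and downward for Peg3 and H19, and the pairs differ in level, as for Zdbf2 at 121.4 to 230.2 CPM in BRE-negative cells.

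The second comparison set the cells labelled as lacking Smad1 and Smad5 against the floxed cells. Smad1 was at 18.0 to 19.1 CPM in the FL libraries and 12.3 to 17.4 CPM in KO, and Smad5 at 31.3 to 33.7 and 25.1 to 34.6 CPM, and neither passed the test (edgeR adjusted p = 0.187 and 0.719, n = 2 and n = 4). Counts over a whole gene do not show a deleted exon by itself, so they check these labels poorly. Peg12 was lower in KO, and it was the sole call among 29 imprinted genes tested (3.45%), where 5.03% of 15933 genes were called (1.85% higher, 3.18% lower). The count of 0 higher calls came from edgeR. DESeq2 called 1 gene higher, Zdbf2. By edgeR, 5 of the 29 genes had an unadjusted p under 0.05 in either direction, as had 3646 of the 15933 genes in all. The levels of the 2 groups did not overlap for 8 of the 29 genes (27.6%), against 34.7% of all genes. Airn, Magel2 and Zim1 were not tested.

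Peg12 (chr7:62461871-62464510, minus strand) is an intronless gene of the Prader-Willi region and encodes a relative of the Wnt pathway proteins FRAT1 and FRAT2. FL replicates 1 and 2 had 29.3 and 19.4 CPM, and KO replicates 1 to 4 had 10, 6.43, 7.79 and 8.17 CPM. Both FL libraries lay above all KO libraries, and FL replicate 1 lay highest. The difference was 3.01-fold, with means of 24.4 ± 6.96 CPM in the FL libraries and 8.1 ± 1.47 CPM in KO (SD, n = 2 and n = 4, log2 fold change -1.59 ± 0.20, SE, edgeR adjusted p = 0.0107). Without FL replicate 1 the call was lost, at a log2 fold change of -1.26, and that fit called 0 of 16580 genes, with 1948 at an unadjusted p under 0.05. Peg12 shares 85.4% identity with Frat1 over 2537 aligned bases and 86.5% with Frat2 over 578. Whether reads were split between them was not tested. Neither copy was called: Frat1 was at 0.488 CPM in the FL libraries and 0.28 CPM in KO, and Frat2 at 3.41 and 2.54 CPM.

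The other tested genes of the Prader-Willi region were not called. Ndn, of the MAGE family, was at 12 and 11.3 CPM in the FL libraries and at 7.36, 7.81, 9.61 and 8.5 CPM in KO. The FL libraries lay above the KO libraries here too (log2 fold change -0.48 ± 0.14, SE, edgeR adjusted p = 0.0982, n = 2 and n = 4), and DESeq2 called the gene lower. Ube3a, a ubiquitin ligase gene read from the maternal copy in neurons, had a log2 difference of -0.11 ± 0.07.

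Zdbf2, higher in BRE-positive cells, stood at 72.1 and 79.9 CPM in the FL libraries and at 107.0, 82.2, 118.1 and 105.1 CPM in KO. The KO libraries all lay above FL (log2 fold change 0.44 ± 0.14, SE, edgeR adjusted p = 0.104, n = 2 and n = 4). The gene was called with KO replicate 2 left out. Peg3 was at 80.7 and 92.2 CPM in the FL libraries and at 93.4, 99.6, 199.0 and 124.5 CPM in KO. All KO libraries again lay above FL, KO replicate 1 by the least (log2 fold change 0.58 ± 0.29, SE, edgeR adjusted p = 0.271, n = 2 and n = 4). Nnat, which encodes a small proteolipid of the endoplasmic reticulum, had 1.16 and 0.706 CPM in the FL libraries and 1.56, 1.85, 2.37 and 1.36 CPM in KO. Its groups did not overlap either (log2 fold change 0.95 ± 0.33, SE, edgeR adjusted p = 0.142, n = 2 and n = 4).

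Several imprinted genes varied widely among the 4 KO libraries. Of 26 with a mean of at least 1 CPM in KO, 9 (34.6%) spanned over 2-fold among the KO libraries on the log2(CPM + 0.1) scale, as against 6.92% of 12719 genes at that level. The 9 were Peg3, Mest, Cdkn1c, Phlda2, Slc22a18, Grb10, Plagl1, Peg10 and Zrsr1. In FL it was 0 of 25 genes (2.24% of all), in BRE-negative 4 of 27 (14.8% against 6.23%) and in BRE-positive 1 of 27 (3.7% against 5.68%). With 2 libraries in FL and 4 in KO these shares are not on an equal footing, and they carry no test. The median ratio of the highest to the lowest KO library was 1.74 for the imprinted genes and 1.24 for all.

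Slc22a18, Grb10 and Phlda2 had the widest ranges among these, at 4.58, 4.33 and 4.13 times from the lowest to the highest KO library. Slc22a18, a transporter gene, was at 4.87 and 3.94 CPM in the FL libraries and at 8.58, 6.97, 1.87 and 3.47 CPM in KO, on both sides of FL (log2 fold change 0.25 ± 0.53). Grb10, an adaptor of insulin and IGF receptors that restrains growth, was at 179.6 and 170.9 CPM in the FL libraries and at 120.5, 88.4, 27.8 and 64.3 CPM in KO. Every KO library lay below FL, and KO replicate 3 was far below the others (log2 fold change -1.22 ± 0.43, SE, edgeR adjusted p = 0.145, n = 2 and n = 4). Phlda2 was at 26.4 and 21.8 CPM in the FL libraries and 22.6, 23.1, 5.59 and 13.1 CPM in KO. KO replicates 1 and 2 lay within the FL values and replicates 3 and 4 below them (log2 fold change -0.58 ± 0.46). Cdkn1c, a CDK inhibitor gene of the same Kcnq1 domain, was at 24.1 and 27.0 CPM in the FL libraries and at 13.4, 20.8, 8.45 and 25.7 CPM in KO, where replicates 1 and 3 were low (log2 fold change -0.58 ± 0.37).

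Mest, a paternally expressed alpha/beta hydrolase gene, had 106.6 and 126.5 CPM in the FL libraries and 79.0, 177.7, 214.7 and 232.7 CPM in KO. KO replicate 1 lay below FL and replicates 2 to 4 above it. Over all libraries the log2 fold change was 0.60 ± 0.37 (SE, edgeR adjusted p = 0.371, n = 2 and n = 4). Without KO replicate 1 it was 0.84 ± 0.13, and edgeR then called Mest higher. Peg10, a gene derived from a retrotransposon and needed for the placenta, was at 105.7 and 163.5 CPM in the FL libraries and at 69.6, 160.0, 260.8 and 268.4 CPM in KO (log2 fold change 0.50 ± 0.48). Impact was at 147.0 and 229.7 CPM in the FL libraries and at 163.0, 260.9, 251.9 and 302.5 CPM in KO (log2 fold change 0.38 ± 0.25). In both genes FL replicate 1 and KO replicate 1 were the lowest libraries of the experiment. Plagl1 was at 7.54 and 4.94 CPM in the FL libraries and 3.36, 10.3, 6.19 and 4.53 CPM in KO, with the groups overlapping (log2 fold change -0.02 ± 0.41).

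The extremes of both parental classes lay mostly in KO replicates 1 and 3. KO replicate 1 was the lowest of 4 for 9 of 15 paternally expressed genes at this level (Peg3, Mest, Ndn, Plagl1, Peg10, Sgce, Impact, Zrsr1 and Inpp5f), and it was the lowest for 26.4% of all genes. KO replicate 3 was the lowest for 7 of 11 maternally expressed genes (Cdkn1c, Phlda2, Slc22a18, Grb10, Gnas, Ascl2 and Copg2), as for 22.4% of all. Replicate 3 was also the highest for 8 of the 15 paternally expressed and 3 of the 11 maternally expressed genes, against 21.1% of all. Replicate 1 was the highest for 4 of the 11 maternally expressed genes (Slc22a18, Grb10, Copg2 and Commd1) and for Peg12 of the 15 paternally expressed, against 32.0% of all. Genes of 1 locus share a control region and are not independent. KO replicates 3 and 4 resembled each other most, with a median chi-square of 1.31 per gene, and were counted as separate. Replicates 1 and 2 followed at 2.98, and the 4 other KO pairs lay between 5.01 and 5.45. Across all genes, the deviation of FL replicate 1 from the FL mean correlated with the deviations of KO replicates 1 and 2 from the KO mean (0.241 and 0.4) and was inverse to those of replicates 3 and 4 (-0.368 and -0.335). With 2 FL libraries, FL replicate 2 has the same values with the opposite sign. The labels do not give the parental line of any library, so no line term was fitted, and line and library cannot be told apart.

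**Figure D3:**
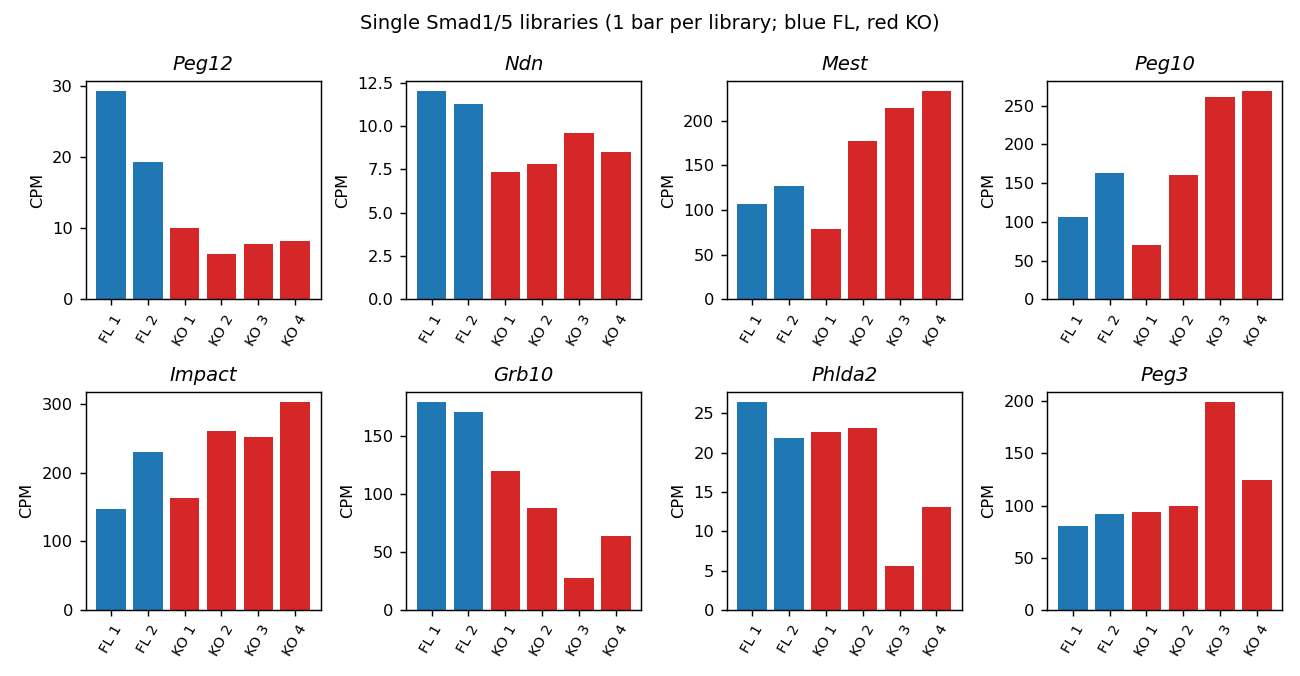
CPM of 8 imprinted genes in each of the 2 FL and 4 KO libraries, with 1 bar per library and axes from 0. Peg12 and Ndn are lower in every KO library than in FL, whereas Mest, Peg10, Grb10 and Phlda2 spread widely within KO, Grb10 from 27.8 to 120.5 CPM.

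The third comparison set the 6 BRE libraries against the 6 FL and KO libraries. It describes the genes across all groups. Cell line, strain, medium, feeders and sorting all differ between the experiments and cannot be told apart. Of 31 imprinted genes tested, 27 were called (87.1%), 14 higher and 13 lower in the BRE libraries, where 67.8% of 17112 genes were called (33.7% higher, 34.0% lower). By over 2-fold, 8 were higher and 10 lower, against 29.6% of all genes in either direction (16.2% higher, 13.4% lower). Levels did not overlap between the experiments for 21 genes (67.7%), 9 higher and 12 lower, against 44.8% of all. The median size of change was 1.04 on the log2 scale, against 0.55 for all genes. The parental classes were not alike in direction: 9 of 13 maternally expressed genes were higher and 3 lower (median log2 fold change 0.36), and 5 of 18 paternally expressed were higher and 10 lower (median -0.92). Among the maternally expressed genes that were higher, Copg2, Igf2r, Gnas and Phlda2 lost their calls in 13, 6, 2 and 1 of 21 alternative fits. Among those that were lower, Slc22a18 and Ube3a lost theirs in 14 and 4 of 21. Of the paternally expressed genes, Magel2, which was higher, lost its call in 2 of 20. Genes of 1 locus are not independent. Cdkn1c, Plagl1, Peg10 and Sgce were not called.

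**Figure D4:**
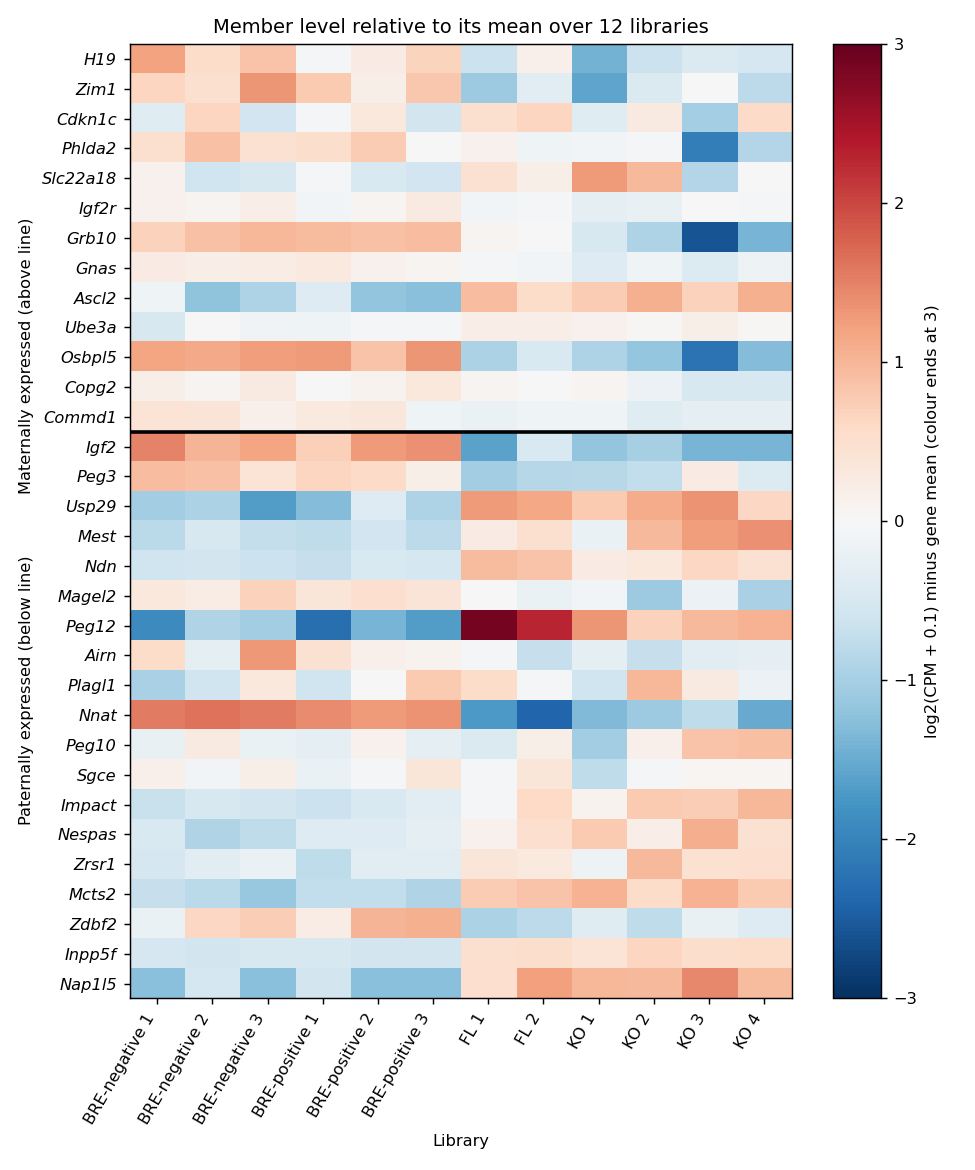
Level of each imprinted gene in each of 12 libraries as log2(CPM + 0.1) minus the gene's mean over the libraries, with maternally expressed genes above the line and paternally expressed genes below it. Most rows change colour between the 6 BRE and the 6 FL and KO libraries, and the KO columns differ from one another in rows such as Grb10, Phlda2 and Mest.

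Igf2, H19, Igf2r and Grb10 were each higher in the BRE libraries, whereas further genes of IGF signalling went both ways. Igf2 was at 3.04 to 5.27 CPM in the 6 BRE libraries and at 0.534 and 1.30 CPM in the FL libraries and 0.746, 0.871, 0.633 and 0.629 CPM in KO. No FL or KO library reached the lowest BRE library, and the difference was 5.24-fold (log2 fold change 2.39 ± 0.23, SE, edgeR adjusted p = 1.04e-06, n = 6 and n = 6). H19, from the same locus, was at 4.54 and 7.95 CPM in the FL libraries and 2.61, 4.52, 5.26 and 4.99 CPM in KO, and its BRE values of 6.77 to 16.5 CPM overlapped only with FL replicate 2. It was 2.08-fold higher in the BRE libraries (log2 fold change 1.06 ± 0.21, SE, edgeR adjusted p = 0.000626, n = 6 and n = 6). Igf2r, the receptor that clears IGF2 from the cell surface, was at 222.1, 215.0 and 233.5 CPM in the BRE-negative and 192.9, 213.6 and 245.7 CPM in BRE-positive libraries. In FL it was at 192.1 and 194.4 CPM and in KO at 168.9, 173.6, 204.4 and 193.4 CPM, so the experiments overlapped and differed by 1.17-fold (log2 fold change 0.22 ± 0.07, SE, edgeR adjusted p = 0.0166, n = 6 and n = 6). The Igf2r call was lost with FL replicate 1 left out.

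Grb10 was at 270.6, 308.7 and 334.3 CPM in the BRE-negative and 326.5, 311.5 and 320.4 CPM in BRE-positive libraries, all above the FL and KO libraries given before. It was 2.72-fold higher in the BRE libraries (log2 fold change 1.44 ± 0.26, SE, edgeR adjusted p = 0.000233, n = 6 and n = 6). The size depends on the KO libraries: BRE-negative against FL alone gave 0.80. Of 12 further genes of IGF signalling, 0 of 11 tested were called by edgeR in the first comparison and 0 of 11 in the second. Of all genes, 2.97% and 5.03% were called. In each comparison 4 of the 11 were under an unadjusted p of 0.05, against 2817 of 15435 and 3646 of 15933 genes in all. DESeq2 called 0 of the 8 with an adjusted p in the first and Igfbp3 in the second. In the third, 6 of 12 were higher and 3 lower, where 33.7% of all genes were higher and 34.0% lower. The largest changes were in Igf1 (3.38), the binding protein gene Igfbp5 (-3.18) and the adaptor gene Irs1 (2.94) on the log2 scale. Igf1 was at 0 CPM in KO, so the size of its change depends on how zeros are handled. Fibroblast markers moved in the same direction, with 16 of 17 tested higher in the BRE libraries by a median of 4.12 on the log2 scale. Their part in these changes was not tested. Among 5 primitive endoderm markers tested, 4 were higher too (sums of 5.25 to 12.5 CPM in the BRE libraries, with Afp at 0, and 2.89 to 4.84 CPM in the FL libraries and KO). Of 4 mesoderm markers, 2 were higher (1.37 to 2.43 against 0.746 to 1.1 CPM).

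Nnat had the largest rise among the imprinted genes tested. It was at 12.1, 12.9 and 12.2 CPM in the BRE-negative and 11.1, 10.1 and 10.5 CPM in BRE-positive libraries, against 0.706 to 2.37 CPM in the FL libraries and KO. The ranges were far apart, at 8.85-fold (log2 fold change 3.15 ± 0.17, SE, edgeR adjusted p = 4.6e-09, n = 6 and n = 6). Osbpl5, a maternally expressed gene of the Kcnq1 domain for a lipid transfer protein of the oxysterol-binding family, was at 2.70, 2.62 and 2.85 CPM and at 2.86, 2.11 and 2.95 CPM in the 2 BRE groups. It was at 0.534 and 0.787 CPM in the FL libraries and 0.542, 0.449, 0.165 and 0.397 CPM in KO, 5.27-fold lower there (log2 fold change 2.4 ± 0.24, SE, edgeR adjusted p = 1.7e-06, n = 6 and n = 6).

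Within the Kcnq1 domain the genes did not share a direction. Phlda2 was at 33.4, 44.3 and 33.0 CPM in the BRE-negative and 34.5, 40.8 and 24.3 CPM in BRE-positive libraries, 1.78-fold above FL and KO (log2 fold change 0.83 ± 0.28, SE, edgeR adjusted p = 0.0172, n = 6 and n = 6), with the experiments overlapping. Its call was lost with FL replicate 2 left out. Ascl2, a basic helix-loop-helix factor gene of the trophoblast, was at 2.87, 1.31 and 1.61 CPM and at 2.39, 1.35 and 1.28 CPM in the BRE groups. In FL it was at 6.11 and 4.72 CPM and in KO at 5.49, 6.80, 5.23 and 6.81 CPM. All FL and KO libraries were above all BRE libraries (log2 fold change -1.67 ± 0.22, SE, edgeR adjusted p = 1.79e-05, n = 6 and n = 6). The 6 trophoblast markers summed to 5.29 to 7.24 CPM in the BRE libraries and 4.24 to 7.12 CPM in the FL libraries and KO, with Elf5 at 0 in BRE-positive. Cdkn1c was at 13.5, 27.2 and 11.7 CPM in the BRE-negative and 16.8, 21.7 and 11.9 CPM in BRE-positive libraries, a range that overlapped with FL and KO (-0.28 ± 0.27). Slc22a18 ranged from 2.29 to 3.82 CPM in the BRE libraries and from 1.87 to 8.58 CPM in the FL libraries and KO (-0.77 ± 0.32), and its call was lost in 14 of 21 alternative fits.

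At the Peg3 locus, neighbours whose starts lie 146 bases apart differed in opposite directions. Peg3 was 2.42-fold higher in the BRE libraries (log2 fold change 1.28 ± 0.18, SE, edgeR adjusted p = 3.58e-05, n = 6 and n = 6), although KO replicate 3, at 199.0 CPM, lay above BRE-positive replicate 3, at 188.4 CPM. Usp29, read the other way from the same region and named for the ubiquitin peptidase family, was at 0.585, 0.623 and 0.335 CPM in the BRE-negative and 0.466, 0.972 and 0.642 CPM in BRE-positive libraries. FL had 3.29 and 3.04 CPM and KO 2.31, 2.92, 3.44 and 2.05 CPM, all above the BRE libraries. Usp29 was 4.83-fold lower in the BRE libraries (log2 fold change -2.27 ± 0.23, SE, edgeR adjusted p = 1.71e-06, n = 6 and n = 6). Zim1, the maternally expressed zinc finger gene beside Peg3, was at 0.53, 0.459 and 0.904 CPM and at 0.59, 0.351 and 0.605 CPM in the BRE groups. It was at 0.089 and 0.217 CPM in the FL libraries and 0.0339, 0.197, 0.303 and 0.132 CPM in KO, from 1 to 11 counts per library (log2 fold change 1.77 ± 0.41, SE, edgeR adjusted p = 0.00184, n = 6 and n = 6).

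Other paired loci also held fold changes of opposite sign. Mest was at 51.1, 64.3 and 54.7 CPM in the BRE-negative and 52.9, 60.3 and 52.1 CPM in BRE-positive libraries, below every FL and KO library and 2.56-fold lower (log2 fold change -1.36 ± 0.20, SE, edgeR adjusted p = 5.59e-05, n = 6 and n = 6). Copg2, a coatomer subunit gene that overlaps Mest by 912 exonic bases on the opposite strand, had a log2 fold change of 0.26 ± 0.10, and its call was lost in 13 of 21 alternative fits. Gnas (0.36 ± 0.07) was higher and Nespas (-1.03 ± 0.15) lower, with 988 exonic bases shared on opposite strands. The Gnas call was lost with offsets for exon length (0.19, edgeR adjusted p = 0.0506) and in BRE-negative against FL alone (0.28, edgeR adjusted p = 0.0536). Commd1 (0.47 ± 0.10), a COMM domain gene, was higher, and Zrsr1 (-0.82 ± 0.16), a retrogene of a splicing factor inside it, was lower, with 412 bases shared. Whether the counting used strand is not stated, and reads in these overlaps may not be told apart. Mcts2, a retrogene within the gene H13 but sharing no exonic base with it, was at 10.5, 9.70 and 7.77 CPM and at 10.3, 10.2 and 9.07 CPM in the BRE groups. In FL it was at 29.0 and 30.9 CPM and in KO at 35.2, 25.0, 35.6 and 29.4 CPM, far above the BRE libraries (log2 fold change -1.67 ± 0.11, SE, edgeR adjusted p = 3.05e-08, n = 6 and n = 6). H13 was higher in the BRE libraries (0.44 ± 0.11).

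Retrogenes and family members resemble their copies in sequence, and whether they share reads with them was not tested. Mcts2 was 83.8% identical to Mcts1 over 671 aligned bases, and Mcts1 differed in the same direction (-1.35 ± 0.07). Zrsr1 was 77.4% identical to Zrsr2 over 1285 bases, and Zrsr2 was also lower in the BRE libraries (-0.71 ± 0.06). Copg2 was 72.0% identical to Copg1 over 2631 bases, and Copg1 went the other way (-0.46 ± 0.07). No copy aligned to Nap1l5. Of these copies, edgeR called 1 of 7 in the second comparison, Nap1l1 (0.32 ± 0.07), where 5.03% of all genes were called. In the first it called 0 of 7, against 2.97% of all genes, and 0 had an unadjusted p under 0.05. DESeq2 called Nap1l1 too in the second, and in the first 0 of the 5 with an adjusted p.

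The Prader-Willi genes with a row were split. Peg12 was at 0.975, 2.06 and 1.84 CPM in the BRE-negative and 0.745, 1.43 and 1.17 CPM in BRE-positive libraries, below all FL and KO libraries. The difference of 10.4-fold (log2 fold change -3.38 ± 0.22, SE, edgeR adjusted p = 2.46e-08, n = 6 and n = 6) stood beside a wide spread in FL and KO, from 6.43 to 29.3 CPM. Its copies went the other way, Frat2 by 1.62 ± 0.15 and Frat1 by 1.27 ± 0.27 on the log2 scale. Ndn was at 4.07, 4.23 and 3.95 CPM and at 3.82, 4.51 and 4.27 CPM in the BRE groups, again below FL and KO (log2 fold change -1.25 ± 0.11, SE, edgeR adjusted p = 2.98e-07, n = 6 and n = 6). Magel2, next to Ndn, was higher in the BRE libraries (0.96 ± 0.32), with 11 to 17 counts per BRE library and 3 to 10 per FL or KO library. The Magel2 call was lost without FL replicate 2 (0.90, edgeR adjusted p = 0.0651) and in BRE-negative against FL alone (0.66, edgeR adjusted p = 0.27). Ube3a was lower (-0.27 ± 0.08).

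Among the remaining loci, Impact was at 95.1, 108.2 and 102.8 CPM in the BRE-negative and 96.6, 110.7 and 119.9 CPM in BRE-positive libraries, below all FL and KO libraries (log2 fold change -1.02 ± 0.14, SE, edgeR adjusted p = 3.16e-05, n = 6 and n = 6). Inpp5f, a phosphoinositide phosphatase gene, was 2.06-fold lower in the BRE libraries (-1.04 ± 0.07), and it hardly varied, from 13.3 to 14 CPM there and from 26.2 to 30.8 CPM in the FL libraries and KO. Zdbf2 was 2.42-fold higher (1.27 ± 0.18) without overlap. Peg10 was at 123.3, 172.1 and 124.3 CPM in the BRE-negative and 117.8, 157.4 and 118.2 CPM in BRE-positive libraries, inside the range of FL and KO (-0.24 ± 0.27). Its neighbour Sgce, a sarcoglycan gene with a start 98 bases away, was at 2.89 to 4.31 CPM and 1.93 to 4.32 CPM in the 2 experiments (0.04 ± 0.18).

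The lowest genes rest on few reads. Nap1l5, a retrogene inside Herc3, had 0 to 2 counts in each BRE library and 8 to 20 in each FL or KO library. That is 0, 0.0655 and 0 CPM in the BRE-negative libraries, 0.0621, 0 and 0 CPM in BRE-positive, 0.237 and 0.461 CPM in the FL libraries and 0.373, 0.365, 0.551 and 0.364 CPM in KO. It was called lower in the BRE libraries (edgeR adjusted p = 8.76e-05, n = 6 and n = 6), and its fitted log2 fold change of -3.96 ± 0.62 depends on how near-zero counts are handled. Airn, the antisense RNA that silences the paternal copy of Igf2r in differentiated tissue, had 0 to 9 counts per library. It was at 0.139, 0.0328 and 0.301 CPM in the BRE-negative libraries, 0.124, 0.081 and 0.0756 CPM in BRE-positive, 0.0593 and 0 CPM in the FL libraries and 0.0339, 0, 0.0275 and 0.0331 CPM in KO. It was not tested in any comparison.

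**Figure D5:**
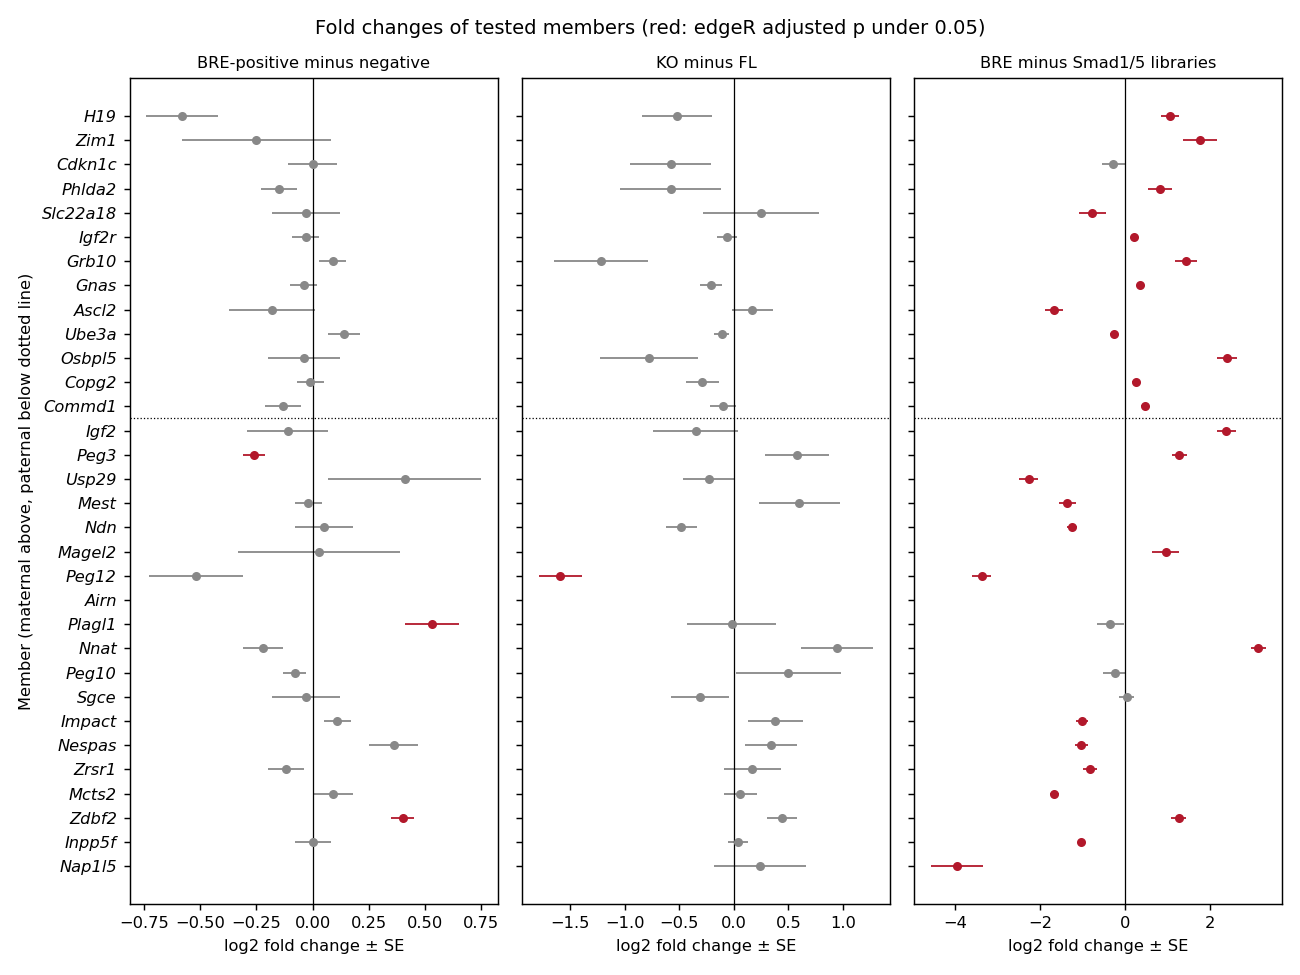
Log2 fold change with its SE for each tested imprinted gene in the 3 comparisons, with a separate scale per panel and genes called by edgeR in red. There are 3 red points for BRE-positive against BRE-negative, 1 for KO against FL (Peg12, -1.59) and 27 for the BRE libraries against the FL and KO libraries.

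Genes that keep imprints were read beside them, in a list of 20 that also holds genes that add or remove DNA methylation and other chromatin genes. In BRE-positive cells 2 were higher, Tet1 (0.25 ± 0.05) and Zfp57 (0.24 ± 0.05). A further 2 were lower, Dppa3 (-1.01 ± 0.15), whose protein shields maternal methylation in the zygote, and the methyltransferase gene Dnmt3b (-0.32 ± 0.06). Of all genes, 2.97% were called. An unadjusted p under 0.05 by edgeR was found for 12 of the 20 and for 2817 of 15435 genes in all. Trim28 was at -0.19 ± 0.05 (edgeR adjusted p = 0.051). DESeq2 called 5 of the 18 with an adjusted p: Tet1, Tet2 and Zfp57 higher, Dnmt3b and Trim28 lower. It gave no adjusted p for Dppa3. Of all 25125 genes with a p-value, DESeq2 called 314. Between KO and FL, Dnmt3b (0.79 ± 0.18) and its cofactor Dnmt3l (0.74 ± 0.16) were higher. Tet2, for an enzyme that oxidises methylated cytosine, was lower (-0.75 ± 0.15). DESeq2 called the same 3, and edgeR called 5.03% of all genes in that comparison. Against the FL and KO libraries, 7 were higher and 10 lower in the BRE libraries, where 67.8% of all genes were called. The largest changes were in Dppa3 (-3.16 ± 0.49), Dnmt3b (-1.81 ± 0.21) and Dnmt3a (1.17 ± 0.21). Zfp57 did not pass the test there, at 351.3 and 408.8 CPM in the BRE groups and 364.7 and 409.9 CPM in the FL libraries and KO. The median log2 fold changes of the list were 0.04, 0.12 and -0.21 in the 3 comparisons. DNA methylation was not measured in these libraries.

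Hosts and neighbours of the imprinted genes were the last list, with 25 symbols. In the first comparison 0 of 18 tested were called by edgeR, where 2.97% of all genes were called. An unadjusted p under 0.05 was found for 4 of them, against 2817 of 15435 genes in all. DESeq2 called 0 of the 12 with an adjusted p. In the second 1 of 17 was called by edgeR, where 5.03% of all genes were called. It was Cd81 (0.42 ± 0.09), a tetraspanin gene beside the Kcnq1 domain. DESeq2 called 3 there: Cd81 higher, Adam23, which lies near Zdbf2, higher (0.45, DESeq2 adjusted p = 0.0204) and Mkrn3, of the Prader-Willi region, lower (-0.56, DESeq2 adjusted p = 0.00929). In the third 6 of 19 were higher and 4 lower, where 67.8% of all genes were called (33.7% higher, 34.0% lower). The largest changes were in Gpr1 (3.21 ± 0.51), which adjoins Zdbf2, in Kcnq1 (2.31 ± 0.42) and in Th (-1.96 ± 0.54). All 3 were below 1 CPM in every group.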

How the data were processed

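The 12 libraries were made, per the labels' protocols, from total RNA with a stranded kit after removal of ribosomal RNA. The submitters' processing notes name STAR 2.4.1d and featureCounts 1.4.6 beside CASAVA 1.8.2, FastQC 0.11.3 and DESeq2 1.6.3, and list GRCm38.p4 and mm10 as builds. Neither the annotation release nor the strand option used in counting is given in the sources used here. The authors deposited raw counts for 39179 genes, and TPM values with gene symbols. These TPM values are a normalised signal per gene made by the authors. They equal (count + 1) per length, scaled per library, as tested on the values, and 39032 entries hold 38310 unique genes, each used once. Coordinates are 1-based on GRCm38 from the GENCODE annotation, promoters come from RefSeq on GRCm38.p6, and identity between copies is that of aligned reference transcripts.

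Groups came from the sample titles. The samples are named biological replicates with no word on separate cultures, so p-values measure only the spread between these samples, which may be technical. Counts were tested with edgeR 4.0.16 (R 4.3.3) in quasi-likelihood fits over all genes, with TMM scaling, edgeR's filter by group (minimum count 10, total 15) and adjusted p under 0.05. The first fit took the 6 BRE libraries and blocked on the pair, because the design states paired collection. Same-numbered libraries deviated together across genes (correlations of 0.658, 0.521 and 0.458, against -0.488 to 0.1 otherwise). The second used 6 FL and KO libraries with no block, and so treats the 4 KO libraries as separate cultures, whereas each line supplied 2 of them. The third used 12 libraries and the mean of the BRE groups minus the mean of FL and KO, and treats the libraries of a pair as independent. Each SE is the size of the fold change over the root of F. CPM uses TMM sizes over all 12 libraries.

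The imprinted genes, the other lists and the tests were chosen with earlier results of these data known, among them the calls of Plagl1, Peg3 and Peg12. Per-library values are given for genes called in the first or second comparison, 20 further named genes where they had a row, and the 6 largest rises and falls among those called only in the third. Others have ranges, and lists have counts with up to 3 called genes. Slc22a18 in FL and KO and Nespas were added after their values were seen. The fits were tested on simulated counts. As alternatives the calls were repeated with RLE scaling, without a count filter, with DESeq2 1.42.0, with limma 3.58.1 on TPM after log2 with 1 or 0.1 added or a minimum mean TPM of 1, other blocks or sets of libraries, each replicate left out, and offsets for exon length, which were added after seeing the data.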

Additional observations from a re-analysis of the deposited data

Results flagged for a closer look

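Among the 4 KO libraries, 32 imprinted genes were examined for a single library far from the others, and 2 (6.25%) had one. Chance alone marks about 1 group in 20. Sgce in KO replicate 1 was at 1.93 CPM, where the other KO libraries lay between 3.26 and 3.52 CPM, a gap of 0.834 of the whole range, just past the limit for 4 libraries. Nap1l5 in KO replicate 3 was at 0.551 CPM, where the others lay between 0.364 and 0.373 CPM, a gap of 0.952 of the range. It rests on 20 counts in that library.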

How the results depend on the processing

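No fold change of an imprinted gene reversed its sign with its call under any alternative run. The 3 calls between BRE-positive and BRE-negative cells became 5 with no count filter (H19 and Nespas added). They became 0 with limma on log2(TPM + 1), on log2(TPM + 0.1) and on log2(TPM + 1) with a mean TPM of at least 1, where limma called 0, 42 and 0 of all genes at 4189, 4442 and 2679 unadjusted. They were also 0 without the replicate block, where 0 of 15435 genes were called and 343 had an unadjusted p under 0.05, and 0 with all 12 libraries in 1 fit (516 unadjusted). Leaving out a pair gave 2 to 7, and 7 without pair 1, while all genes called went from 459 to 2225 without pair 1 and 200 without pair 3. No filter gave 1010 and length offsets 179. Zdbf2 kept its call in 7 of 12 alternatives, Peg3 in 5 of 12 and Plagl1 in 3 of 10. For Plagl1, DESeq2 is left out because it gave no adjusted p. Limma at a mean TPM of at least 1 is left out because Plagl1, at 0.877 TPM, was not tested. DESeq2 gave adjusted p-values for 15 of the 32 imprinted genes here.

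The single call between KO and FL became 3 with DESeq2 (Ndn, Peg12 and Zdbf2; 1508 of all genes against 801), and 0 with limma on log2(TPM + 0.1), which called 136 of all genes. With the replicate number as a block it was 0 (0 of all genes, 2589 unadjusted). These numbers did not pair the libraries: same-numbered libraries gave correlations of 0.241 (FL 1 with KO 1) and -0.4 (FL 2 with KO 2), whereas FL 1 went with KO 1 and 2, and FL 2 with KO 3 and 4 (0.368 and 0.335). No fit was blocked on that grouping, which comes from the values and not from the labels. Leaving out a library gave 0 to 2: 0 without FL replicate 1, Mest added without KO replicate 1 and Zdbf2 without KO replicate 2. All genes called fell to 142 without FL replicate 2, 236 without KO replicate 3 and 215 without KO replicate 4. With 1 FL library left, it is assumed to vary like the KO libraries.

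The 27 calls between the experiments became 17 with limma at a mean TPM of at least 1, where 24 genes were tested, and 23 to 27 with a library left out. BRE-negative against FL alone gave 20, with 7474 of all genes against 11594. Slc22a18, Copg2, Igf2r, Ube3a and Gnas lost their calls in 14, 13, 6, 4 and 2 of 21 alternatives, Magel2 in 2 of 20 and Phlda2 in 1 of 21. Unless a smaller set of genes or libraries is named, the cause of a changed call was not tested. Genes under about 10 counts, such as Airn and Nap1l5 in the BRE libraries, are limited by depth.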
